A study of Homo sapiens with 2 samples.

Results

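The G1/S replication set is a list of 39 genes whose transcripts accumulate as a cell passes from G1 into S phase. Its members were taken by gene symbol from the 36601 genes of the matrix, and all 39 were found and measured. Single-cell RNA sequencing had been run on 6 human breast cancer cell lines, each cultured and sampled a single time. Each line was stained with its own multiplexing oligo, a lipid-anchored barcode, and the lines were combined into 2 pools of 3. Pool A combined BT-474 with MDA-MB-231 and MDA-MB-453, Pool B combined HCC38 with Hs578T and MDA-MB-436, and no treatment is stated for any line. BT-474 and MDA-MB-453 are luminal lines with HER2 alterations, and the other 4 lines are triple-negative, that is, without the hormone receptors and HER2 amplification.

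Before a chromosome can be copied, helicase rings are loaded onto it in G1 and switched on at the start of S phase, after which polymerases, clamps and nucleotide-making enzymes carry out the copying. Transcription of these genes is held back by RB-family proteins bound to E2F factors and released when cyclin E and D kinases act on RB. Tumour lines keep cycling in culture, and the share of their cells that carry these transcripts differs with how many cells are in cycle.

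The barcodes carried suffixes 1 to 6, and all barcodes of a suffix shared 1 leading oligo. Since no label links an oligo to a line, the suffix groups were named "-like" from marker genes, several of them picked with earlier results of these data known. The BT-474-like group led 9 of 9 markers of its line (for example ERBB2 and PGR), MDA-MB-231-like 5 of 5, Hs578T-like 8 of 8 and MDA-MB-436-like 5 of 5. MDA-MB-453-like led 5 of 7 (not MUCL1 and DHRS2, which were highest in BT-474-like) and HCC38-like led 4 of 6 (not KRT14 and KRT17, which were highest in Hs578T-like). RB1, the gene of the retinoblastoma protein that MDA-MB-436 lacks, was at 4.92 CPM in MDA-MB-436-like cells and between 33.1 and 80.9 CPM in the other 5 groups. Markers of leukocytes and endothelium (PTPRC, CD3E, LYZ, PECAM1 and VWF) were at 1.12 CPM or less in every group, and the fibroblast gene LUM was at 126.3 CPM in Hs578T-like cells and at 4.42 CPM or less elsewhere. Levels are given as CPM, the summed count of a gene over the cells of a group scaled to 1 M UMIs (counted molecules) of that group.

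Barcodes with at least 10000 UMIs in genes and at most 20% mitochondrial UMIs were kept, 15236 of 17605, with 1953 to 3419 cells and 70.0 to 96.1 M UMIs per group. Median UMIs per cell lay between 20393 (MDA-MB-453-like) and 38404 (Hs578T-like). The median mitochondrial share was 14.6% in BT-474-like cells and 5.85 to 9.85% in the other groups, and 687 of 2954 BT-474-like barcodes were over the limit. Among kept barcodes, 19 barcode sequences occurred in both captures. With 1 culture per line and each line in 1 pool, no test between lines was possible. Differences between lines and differences between cultures cannot be told apart, and all intervals (95%) cover counting error only.

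Promoters of 31 of the 39 genes were found in a RefSeq table (GRCh38.p14), and the 250 bases before the first listed start were searched on both strands for 4 E2F-type motifs, TTTCCCGC, TTTGGCGC, TTTCGCGC and TTTGCCGC. A motif was found in 11 of the 31 promoters (35.5%), beside 13 of 39 (33.3%) for other replication genes, 4.74% of the 8631 promoters of measured genes and 2.79% of all 27305 promoters. The 11 genes were CASP8AP2, CDCA7, DTL, GINS2, HELLS, MCM6, PCNA, POLA1, TYMS, UBR7 and UHRF1. A match is a run of letters, not a bound site. For each, the nearest stretch of up to 120 bases before the start and outside annotated exons was taken. The stretches of 4 genes held a motif and are shown, with capitals marking the motif letters on either strand:
CDCA7: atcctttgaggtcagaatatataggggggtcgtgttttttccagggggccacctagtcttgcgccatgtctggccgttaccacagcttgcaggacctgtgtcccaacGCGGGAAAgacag
HELLS: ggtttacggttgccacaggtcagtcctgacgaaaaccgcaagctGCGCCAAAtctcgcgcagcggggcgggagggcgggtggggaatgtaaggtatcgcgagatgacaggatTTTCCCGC
MCM6: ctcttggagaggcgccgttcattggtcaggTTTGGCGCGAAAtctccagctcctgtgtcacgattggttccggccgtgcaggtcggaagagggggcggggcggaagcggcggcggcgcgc
PCNA: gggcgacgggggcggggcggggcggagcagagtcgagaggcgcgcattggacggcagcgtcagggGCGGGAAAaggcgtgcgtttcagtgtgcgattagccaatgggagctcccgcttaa
The CDCA7 stretch is chr2:173354700-173354819 on the plus strand, ends 52 bases before the RefSeq start and lies in the span of the annotated gene AC092573.2. That of HELLS is chr10:94545668-94545787 on the plus strand, directly before the RefSeq start and in an intron of the longer HELLS gene span in GENCODE v29. The MCM6 stretch, chr2:135876444-135876563 on the minus strand, lies in no gene span and holds TTTGGCGC and, on the other strand, TTTCGCGC, which overlap by 4 bases. The PCNA stretch, chr20:5126627-5126746 on the minus strand, lies in no gene span and ends 4 bases before the RefSeq start.

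Summed over the 39 genes, the set reached 1578 CPM in BT-474-like cells (95% Poisson interval 1569 to 1587). It reached 3305 CPM in MDA-MB-231-like (3293 to 3317) and 3354 CPM in MDA-MB-453-like cells (3341 to 3367). In the other capture the sums were 3064 CPM in HCC38-like (3053 to 3075), 2564 CPM in Hs578T-like (2553 to 2575) and 2945 CPM in MDA-MB-436-like cells (2933 to 2957). BT-474-like cells were thus lowest and Hs578T-like cells next lowest by summed CPM. Counting intervals did not overlap, but they treat each UMI as independent and leave out the spread between cells. The variance of the set sum over its mean between cells was 5.98 to 14.7, so these intervals do not settle the order of groups. In mean set UMIs per cell at equal depth, BT-474-like (14.4) and Hs578T-like cells (25.4) kept their places. MDA-MB-231-like (32.6) and MDA-MB-453-like cells (32.0) changed places. With TMM scaling, which aligns most genes between groups, BT-474-like cells were still lowest (1751 CPM), but HCC38-like cells were next (2632 CPM), below Hs578T-like (2676 CPM) and MDA-MB-436-like cells (2826 CPM). BT-474-like cells had the lowest level of the 6 groups for 27 of the 39 genes, beside 26.2% of all 10892 measured genes (at least 10 CPM in 1 group or more). MDA-MB-453-like cells had the highest level for 17 of 39 genes, beside 19.8% of measured genes, and MDA-MB-436-like cells for 11 of 39, beside 19.7%. The other groups led fewer members: MDA-MB-231-like cells 5 (13.2% of measured genes), HCC38-like 4 (19.99%), Hs578T-like 1 (DSCC1; 15.6%) and BT-474-like 1 (POLA1; 11.8%). Lowest levels outside the BT-474-like group were in Hs578T-like cells for 5 genes (16.8%), MDA-MB-436-like for 5 (17.2%), MDA-MB-453-like for TYMS (18.1%), HCC38-like for POLA1 (9.81%) and MDA-MB-231-like for 0 (11.95%).

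A gene was called in a group where CPM plus 1 differed at least 2-fold from the mean of the other 5 groups. In BT-474-like cells 18 of 39 genes were called lower, beside 27.1% of all measured genes, and 0 were called higher, beside 7.35%. In the other 5 groups fewer members were called. MDA-MB-453-like cells had 5 higher (MCM6, UBR7, EXO1, DTL and WDR76; 10.4% of all measured genes) and 1 lower (TYMS; 23.1%). MDA-MB-231-like cells had 2 higher (TYMS and E2F8; 6.56%) and 0 lower (17.2%). HCC38-like cells had 2 higher (PCNA and CDCA7; 10.4%) and 1 lower (RRM2; 13.4%). Hs578T-like cells had 0 higher (9.64%) and 3 lower (CDCA7, UNG and E2F8; 17.4%). MDA-MB-436-like cells had 1 higher (RAD51AP1; 9.47%) and 4 lower (POLD3, UNG, BRIP1 and CCNE2; 20.2%). Apart from BT-474-like cells, the share of members called lower was below the background share in every group.

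The median log2 ratio of the 39 genes to the mean of the other 5 groups was -0.94 in BT-474-like cells, beside -0.41 over all measured genes. It was 0.20 in MDA-MB-231-like (all genes -0.16), 0.49 in MDA-MB-453-like (-0.15) and 0.13 in HCC38-like cells (-0.02). It was -0.26 in Hs578T-like (-0.16) and -0.09 in MDA-MB-436-like cells (-0.18). Scaling by TMM moved the median of all genes by 0.17 in BT-474-like and by -0.25 in HCC38-like cells. With it the HCC38-like member median was -0.12, while its distance from the all-gene median was 0.15 under both scalings. Under TMM, members called higher and lower were 0 and 16 in BT-474-like (9.31 and 23.1% of all measured genes), 2 and 0 in MDA-MB-231-like (7.12 and 16.8%) and 6 and 1 in MDA-MB-453-like cells (10.9 and 22.5%). They were 0 and 3 in HCC38-like (6.89 and 18.6%), 0 and 3 in Hs578T-like (10.8 and 16.4%) and 1 and 5 in MDA-MB-436-like cells (8.46 and 21.7%). Against the other 2 groups of its capture, BT-474-like cells had 22 of 39 members lower (21.3% of all measured genes) and 0 higher (7.49%), MDA-MB-231-like cells 5 higher (18.0%) and 0 lower (16.2%), and MDA-MB-453-like cells 11 higher (11.4%) and 2 lower (17.3%). In the second capture, HCC38-like cells had 4 higher (14.9%) and 2 lower (13.6%), Hs578T-like cells 0 higher (9.78%) and 3 lower (15.7%), and MDA-MB-436-like cells 2 higher (9.69%) and 5 lower (19.6%).

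**Figure D1:**
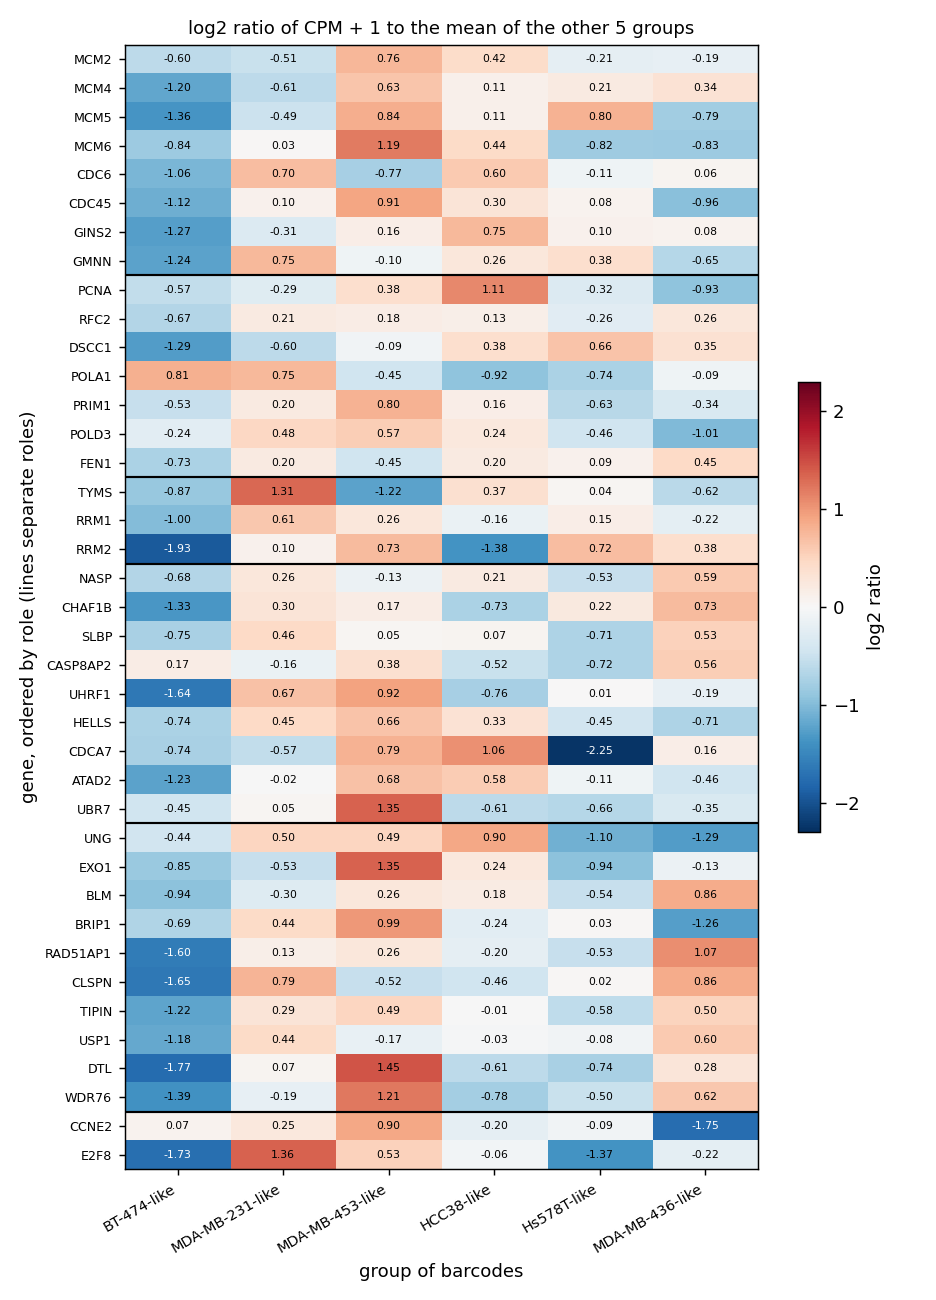
Heat map of the log2 ratio of CPM plus 1 to the mean of the other 5 groups, with the 39 genes in rows ordered by role and the 6 groups in columns. Colour and printed number give the ratio. The BT-474-like column is negative except for POLA1 (0.81), CASP8AP2 (0.17) and CCNE2 (0.07), and the lowest cell is CDCA7 in the Hs578T-like column (-2.25).

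Values of single genes are given below as CPM in the order BT-474-, MDA-MB-231-, MDA-MB-453-, HCC38-, Hs578T- and MDA-MB-436-like. Their Poisson intervals had a median half-width of 3.24% of the value and at most 10.98% (E2F8 in BT-474-like cells, 328 counts). Levels of different genes are not compared, since CPM was not scaled to gene length.

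Of the 8 genes for loading and starting the replicative helicase, 6 were called lower in BT-474-like cells (27.1% of all measured genes). All 8 had their lowest level there (26.2% of all measured genes). MCM5, a subunit of the helicase ring, was at 22.8, 40.1, 85.6, 57.5, 83.8 and 33.0 CPM. CDC45, which joins the ring to make the working helicase, was at 10.3, 22.9, 35.9, 25.6, 22.6 and 11.6 CPM. GINS2, a subunit of the complex that joins it as well, was at 27.5, 50.9, 66.9, 92.8, 64.8 and 63.9 CPM. MCM5 and CDC45 were thus high in MDA-MB-453-like cells and low in BT-474- and MDA-MB-436-like cells, whereas GINS2 was low in BT-474-like cells alone among the 6 groups. CDC6, which loads the ring in G1, was at 23.7, 68.1, 28.6, 64.3, 43.1 and 47.4 CPM. The ring subunits MCM2, MCM4 and MCM6 were all highest in MDA-MB-453-like cells, where CDC6 was second lowest. GMNN, the inhibitor of helicase loading, ranged from 44.4 CPM in BT-474-like to 144.9 CPM in MDA-MB-231-like cells.

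The 7 polymerase, clamp and flap genes had median log2 ratios between -0.57 (BT-474-like) and 0.20 (MDA-MB-231-like). PCNA, the sliding clamp, was at 89.4, 106.5, 157.0, 229.0, 104.2 and 71.4 CPM. DSCC1, a subunit of an alternative clamp loader, was at 12.6, 20.001, 27.6, 36.2, 42.3 and 35.6 CPM. POLA1, the catalytic subunit of the polymerase that starts each strand, was at 42.1, 40.7, 20.1, 14.8, 16.8 and 25.2 CPM. PCNA stood out in HCC38-like cells, and POLA1 ran opposite to most members, being highest in BT-474-like cells. PRIM1 (primase), POLD3 (a subunit of polymerase delta), RFC2 (clamp loader) and FEN1 (flap nuclease) had highest-to-lowest ratios of 1.74 to 2.59. PRIM1 overlaps NACA, FEN1 overlaps FADS2, CHAF1B overlaps MORC3 and HELLS overlaps TBC1D12 on the same strand, so that counts of these 4 genes are uncertain.

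Among the 3 genes of nucleotide supply, each had another pattern. TYMS, thymidylate synthase, was at 88.6, 301.0, 70.8, 185.8, 153.9 and 103.5 CPM. RRM2, the regulated subunit of ribonucleotide reductase, was at 45.4, 163.5, 230.9, 65.4, 229.6 and 191.8 CPM. RRM1, its large subunit, was at 55.7, 144.8, 119.5, 93.4, 112.3 and 90.4 CPM. TYMS was lowest in MDA-MB-453-like cells, where RRM2 was highest, though level with Hs578T-like cells within counting error. RRM2 differed 5.08-fold and RRM1 2.60-fold between highest and lowest group, and RRM2 alone of the pair was low in HCC38-like cells.

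The 9 genes for copying histones, chromatin and methylation had 3 members called lower in BT-474-like cells (CHAF1B, UHRF1 and ATAD2). This was near the share of 27.1% among all measured genes. CDCA7, which targets the remodeller HELLS to chromatin, was at 22.9, 25.6, 56.6, 64.7, 8.004 and 39.9 CPM. UHRF1, which brings the maintenance methylase to newly copied DNA, was at 14.0, 58.8, 67.2, 25.2, 40.6 and 35.9 CPM. CHAF1B, a subunit of the chromatin assembly factor, was at 5.70, 16.96, 15.7, 8.81, 16.2 and 21.7 CPM. CDCA7 was lowest in Hs578T-like cells by far, whereas HELLS, its partner, whose counts are uncertain for the overlap above, was at 66.7 CPM there and between 55.8 and 126.5 CPM over all groups. NASP, a histone chaperone, was at 231.9, 403.2, 322.8, 391.1, 253.7 and 484.2 CPM. CASP8AP2, which takes part in making histone transcripts, was at 36.1, 29.7, 40.6, 23.8, 20.9 and 45.0 CPM. UBR7, a histone-linked ubiquitin ligase, was at 18.9, 25.7, 51.7, 17.1, 16.6 and 20.1 CPM. UBR7 was set apart by a single high group, MDA-MB-453-like. SLBP, which binds histone transcripts, and ATAD2, a chromatin ATPase, were both lowest in BT-474-like cells, at 77.6 and 101.2 CPM.

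Fork protection and repair genes numbered 10, and 6 of them were called lower in BT-474-like cells (27.1% of all measured genes). DTL, which marks the licensing factor CDT1 for destruction in S phase, was at 16.9, 55.2, 113.1, 36.6, 33.6 and 62.1 CPM. RAD51AP1, a DNA repair protein, was at 19.4, 58.1, 62.8, 47.8, 39.2 and 96.4 CPM. WDR76, a WD-repeat protein linked to DNA damage, was at 13.3, 29.1, 62.8, 20.1, 23.9 and 46.5 CPM. DTL and WDR76 shared their highest groups, MDA-MB-453- and MDA-MB-436-like, and RAD51AP1 was highest in MDA-MB-436-like cells. CLSPN, a checkpoint adaptor, was at 41.9, 182.6, 86.4, 89.8, 119.5 and 189.3 CPM. EXO1, a repair exonuclease, was at 10.7, 13.2, 38.5, 21.3, 10.0 and 17.04 CPM. The base excision enzyme UNG was at 28.4, 49.6, 49.3, 61.3, 18.6 and 16.4 CPM. In MDA-MB-436-like cells this group of genes was split, with RAD51AP1 and CLSPN at their highest and UNG at its lowest. BRIP1, a helicase that binds BRCA1, was at 10.3, 21.0, 28.2, 13.8, 16.4 and 6.90 CPM. USP1 (a deubiquitinase of PCNA), TIPIN (fork protection) and BLM (a helicase) were also highest in MDA-MB-436-like cells, at 205.0, 47.6 and 33.0 CPM.

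The 2 regulators of S-phase entry did not share a pattern. CCNE2, a cyclin E, was at 33.6, 37.2, 53.0, 28.6, 30.5 and 10.2 CPM. E2F8, a repressor of the E2F family, was at 4.69, 33.1, 21.5, 15.2, 6.22 and 13.7 CPM. CCNE2 was low in MDA-MB-436-like cells, where the other cyclin E gene, CCNE1, was at 24.6 CPM, the highest of its 6 values (6.55 to 24.6 CPM).

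A gene was out of step in a group where its log2 ratio lay at least 1 from the median of the other 38 members. This was met by 13 of the 39 genes in 19 of 234 gene and group pairs. Among measured genes outside the list, 31.6% of pairs lay at least 1 from the median of the members, and 74.5% of genes did so in 1 group or more. Distances of called members reached from -2.02 to 1.78.

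In BT-474-like cells, POLA1 (chrX:24693919-24996986, GENCODE v29 on GRCh38) lay 1.78 above the other members, CASP8AP2 1.13 above and CCNE2 1.04 above. RRM2 lay 1.03 below them (log2 distance -1.03). POLA1, CASP8AP2 and CCNE2 were thus close to or above the other lines in the group in which most members were low. In MDA-MB-231-like cells, TYMS (chr18:657604-673578) and E2F8 lay above the others, with distances of 1.11 and 1.16. In MDA-MB-453-like cells, TYMS was at -1.73, CDC6 at -1.28 and CLSPN at -1.03. TYMS was therefore out of step in opposite directions in 2 lines of the same capture.

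In HCC38-like cells, RRM2 (chr2:10120698-10131419) was at -1.52 and POLA1 at -1.06. In Hs578T-like cells, CDCA7 (chr2:173354820-173368997) was at -2.02 and E2F8 at -1.13, while MCM5 was at 1.09 and RRM2 at 1.005. In MDA-MB-436-like cells, CCNE2 was at -1.73, UNG at -1.27 and BRIP1 at -1.24, and RAD51AP1 (chr12:4538798-4560048) was at 1.18. RRM2 was out of step in 3 groups, and TYMS, POLA1, CCNE2 and E2F8 in 2 groups each. Of the 19 pairs, 12 held under all 5 alternative settings. The 7 that did not were both E2F8 pairs, RRM2 in Hs578T-like, POLA1 in HCC38-like, CCNE2 in BT-474-like, CLSPN in MDA-MB-453-like and BRIP1 in MDA-MB-436-like cells.

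The log2 ratio of the measured genes within 5 Mb was set beside each value. For the out-of-step pairs, the neighbours' median, less that of all genes, lay at least 0.5 from 0 in the same direction in 10 of 19 pairs (52.6%), beside 32 of 215 in-step pairs (14.9%). It was 0.86 for POLA1 in BT-474-like cells (14 neighbours), -1.24 for TYMS in MDA-MB-453-like cells (17 neighbours) and 1.12 for RAD51AP1 in MDA-MB-436-like cells (61 neighbours). RRM2 in HCC38-like cells had neighbours at -1.06 (25 genes), and CCNE2 in MDA-MB-436-like cells had neighbours at -0.94 (38 genes). CDCA7 in Hs578T-like cells, the pair with the lowest distance, had neighbours at 0.01 (39 genes). RRM2 in BT-474-like cells was low beside neighbours at 0.39, and UNG in MDA-MB-436-like cells had neighbours at -0.21. The part of neighbouring genes in these values was not tested. TYMS overlaps ENOSF1 and CCNE2 overlaps INTS8 on the opposite strand, and whether the counting used strand is not given in the sources used here.

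**Figure D2:**
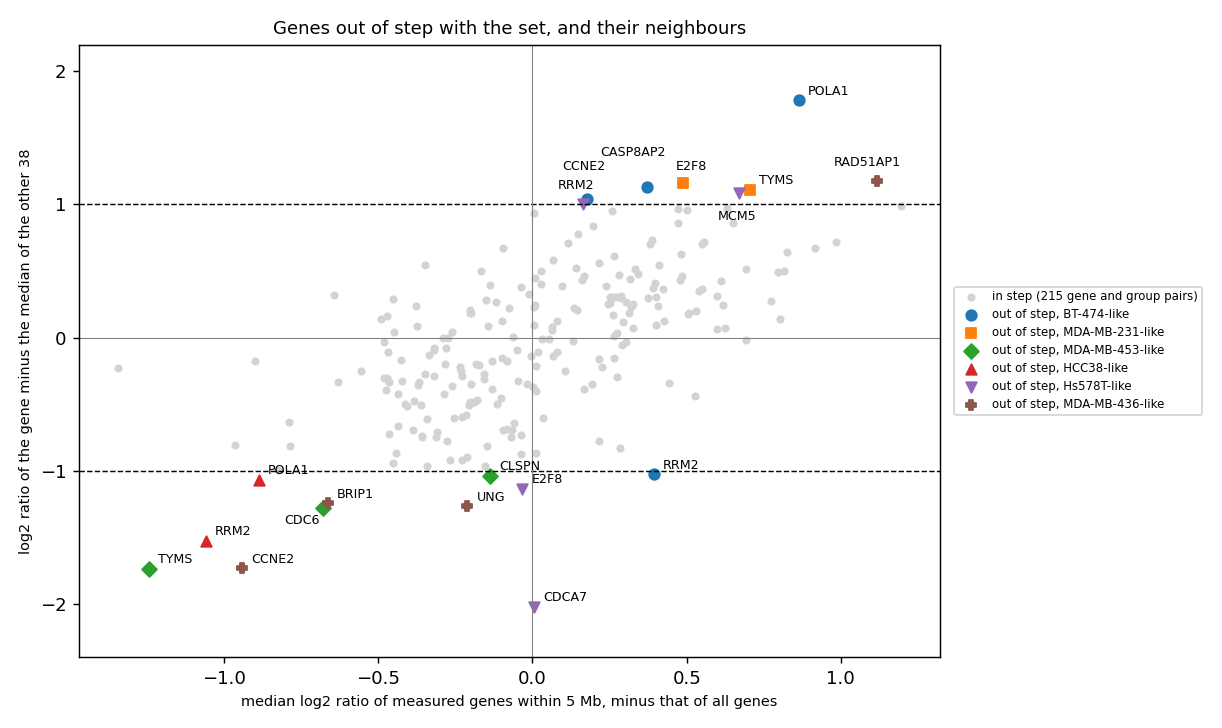
Each point is 1 gene in 1 group. The vertical axis is its log2 ratio less the median of the other 38 members, the horizontal axis is the median log2 ratio of measured genes within 5 Mb less that of all genes, and dashed lines mark distances of 1 and -1. Coloured points are the 19 out-of-step pairs, of which TYMS in MDA-MB-453-like cells and RAD51AP1 in MDA-MB-436-like cells lie far from 0 on both axes and CDCA7 in Hs578T-like cells on the vertical axis alone.

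To compare cells, each was thinned at random to 10000 UMIs and the UMIs of the 39 genes were summed. The median cell held 8 set UMIs in the BT-474-like group, 30 in MDA-MB-231-like, 25 in MDA-MB-453-like, 27 in HCC38-like, 24 in Hs578T-like and 27 in MDA-MB-436-like. A cell was counted as expressing the set at 20 set UMIs or more. This share was 23.5% of BT-474-like cells (Clopper-Pearson interval 21.7 to 25.3%), 73.5% of MDA-MB-231-like (71.9 to 75.1%) and 62.1% of MDA-MB-453-like cells (60.4 to 63.7%). It was 66.6% of HCC38-like (64.7 to 68.4%), 61.7% of Hs578T-like (59.5 to 63.9%) and 78.4% of MDA-MB-436-like cells (76.7 to 80.1%). BT-474-like cells were lowest and MDA-MB-436-like cells highest, and the intervals of Hs578T- and MDA-MB-453-like cells overlapped. The limit is a point on a range and not a cell type, and 9.73 to 23.6% of cells lay within 3 UMIs of it.

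Among the 25% of cells with the highest sums, the BT-474-like mean was 35.8 set UMIs, beside 44.5 to 62.5 in the other groups. The highest 25% of BT-474-like cells were thus also lowest of the 6 groups, although only 23.5% of BT-474-like cells reached 20 set UMIs. Among cells at 20 set UMIs or more, BT-474-like cells were not lowest. Their mean was 36.9, beside 33.9 in Hs578T-like and 33.3 in MDA-MB-436-like cells. It was 39.8 in MDA-MB-231-like, 43.6 in MDA-MB-453-like and 39.2 in HCC38-like cells. Cells with fewer than 10 UMIs both in the set and in 20 G2/M genes, a measure added after the values were seen, made up 52.2% of BT-474-like cells (50.1 to 54.3%). They made up 5.601% of MDA-MB-231-like, 5.85% of MDA-MB-453-like, 13.2% of HCC38-like, 9.78% of Hs578T-like and 1.12% of MDA-MB-436-like cells. These BT-474-like cells had a median of 26425 UMIs and 14.8% mitochondrial UMIs, beside 28527 UMIs and 14.6% in all BT-474-like cells. Cells over the limit were deeper than those under it, with medians of 34913.5 and 27027 UMIs before thinning in BT-474-like and 31244 and 29447.5 in MDA-MB-436-like cells, and the part of depth or RNA content was not tested.

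The spread between cells also differed. The variance of the set sum over its mean was 14.7 in BT-474-like, 13.5 in MDA-MB-453-like, 11.2 in HCC38-like, 9.71 in MDA-MB-231-like, 7.65 in Hs578T-like and 5.98 in MDA-MB-436-like cells. In the 25% of MDA-MB-436-like cells with the lowest sums the mean was still 15.6 set UMIs, beside 3.12 in BT-474-like and 8.44 to 11.9 in the other 4 groups. MDA-MB-436-like cells thus had the lowest variance over mean and the highest floor.

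**Figure D3:**
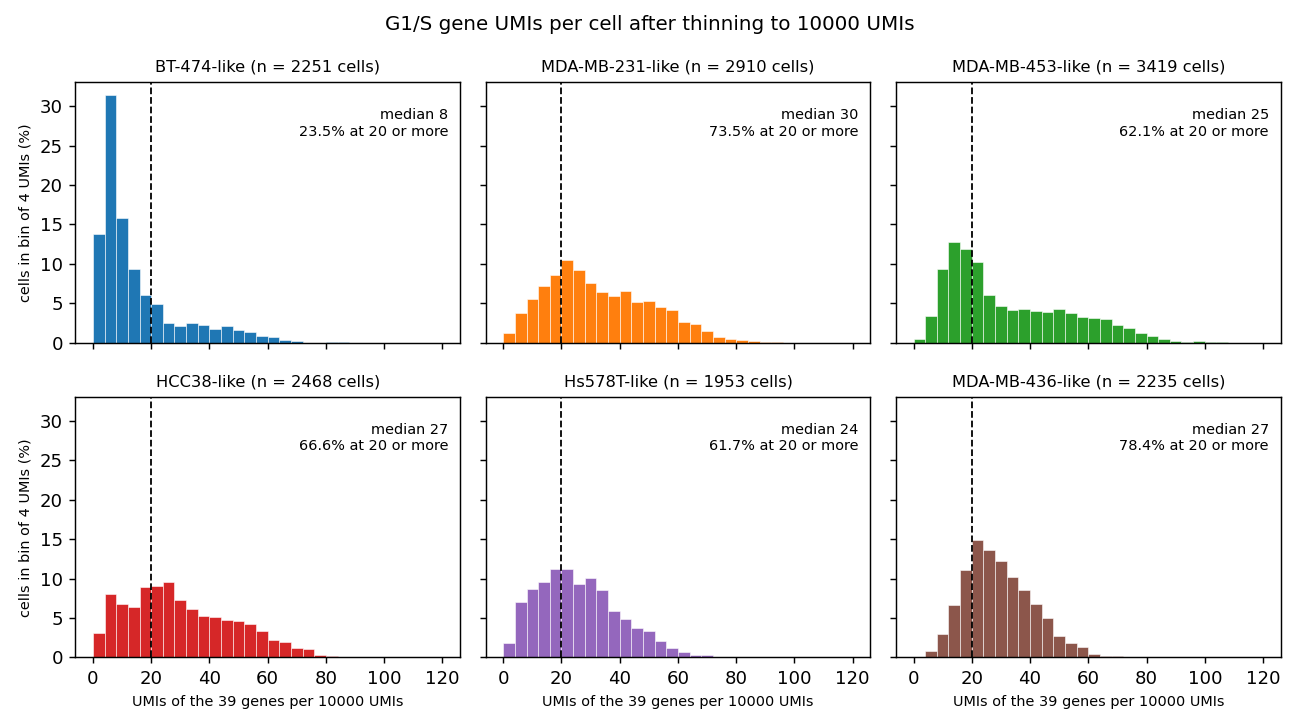
Histograms of set UMIs per cell after thinning to 10000 UMIs, 1 panel per group, with the percent of cells in bins of 4 UMIs on the vertical axis and the limit of 20 UMIs dashed. BT-474-like cells pile up under 10 UMIs with a tail over the limit (23.5% of cells), and MDA-MB-436-like cells form a single peak (78.4% over the limit).

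Shares of cells with a UMI of single genes, at 10000 UMIs, did not always follow the levels. RRM2 was level within counting error in MDA-MB-453- and Hs578T-like cells (230.9 and 229.6 CPM). It was found in 57.8% of the former, beside 72.9% of the latter and 72.7% of MDA-MB-436-like cells. TYMS was found in 33.8% of BT-474-like and 41.5% of MDA-MB-453-like cells, although its level was lower in the latter. NASP was found in 79.9% of BT-474-like and 86.8 to 97.8% of other cells, and E2F8 in 3.51% of BT-474-like and 24.1% of MDA-MB-231-like cells. CLSPN was found in 23.1% of BT-474-like and 75.7% of MDA-MB-436-like cells, and CDCA7 in 7.83% of Hs578T-like and 40.2% of HCC38-like cells. CCNE2 was found in 9.71% of MDA-MB-436-like cells and in 20.7 to 36.1% of cells in the other groups. As a guide to free RNA, TFF1, a secreted peptide gene of the BT-474 list, had a UMI in 91.4% of BT-474-like and 10.9% of MDA-MB-231-like cells, whose median depths were 28527 and 26390.5 UMIs. In MDA-MB-453-like cells of the same capture (median 20393 UMIs), TFF1 had one in 34.7% of cells, at 13.4% of the BT-474-like level. MUCL1, a gene of the MDA-MB-453 list that was highest in BT-474-like cells, had one in 27.8%, at 8.12%. Whether MDA-MB-453-like cells express these luminal genes themselves was not tested. THY1 of the Hs578T list had one in 98.8% of Hs578T-like cells and in 8.14% of MDA-MB-436-like cells. TFF1 in MDA-MB-231-like and THY1 in MDA-MB-436-like cells were at 2.55% and 2.44% of the level in their own line. No group here should lack the replication genes, so a background share for them could not be measured, and shares of a few percent are not read as expression.

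The members were next compared between cells of 1 line. For each gene, cells of a group were ranked by the sum of the other 38 members, and the highest 25% of cells were set against the lowest 25%. All 39 genes were at least 2-fold higher in the highest cells in BT-474-, MDA-MB-231-, MDA-MB-453- and HCC38-like cells, 38 in Hs578T-like (not SLBP) and 27 in MDA-MB-436-like cells. Among measured genes outside the list, ranked by the whole set, 4.77, 1.93, 2.45, 3.22, 1.88 and 0.866% were. The median ratio over the members was 8.29 in BT-474-like, 4.29 in MDA-MB-231-like, 4.66 in MDA-MB-453-like, 6.03 in HCC38-like, 3.53 in Hs578T-like and 2.48 in MDA-MB-436-like cells. A count of 27 of the 39 genes passed 2-fold in all 6 groups.

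EXO1 and DTL had the highest mean ratios over groups, 12.5 and 10.96. EXO1 was at 30.4 CPM in the highest and 0.26 CPM in the lowest 25% of BT-474-like cells, and at 31.1 and 6.62 CPM in MDA-MB-436-like cells. DTL was at 48.5 and 1.28 CPM in BT-474-like, 82.5 and 4.40 CPM in HCC38-like and 108.2 and 24.5 CPM in MDA-MB-436-like cells. Both genes were thus nearly absent from the lowest BT-474-like cells and present in the lowest MDA-MB-436-like cells. NASP and UBR7 had the lowest mean ratios, 2.40 and 2.49. NASP was at 387.0 and 120.7 CPM in BT-474-like and at 600.1 and 387.4 CPM in MDA-MB-436-like cells, so that even the lowest cells held it.

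Genes that varied little with the set in MDA-MB-436-like cells included RRM2, TYMS, RAD51AP1 and RRM1. RRM2 was at 248.3 CPM in the highest and 156.4 CPM in the lowest 25% of cells, a ratio of 1.59 before the pseudocount (1.52 to 1.66). In BT-474-like cells RRM2 was at 123.9 and 4.91 CPM, a ratio of 25.2 (20.1 to 32.1). TYMS was at 138.9 and 76.2 CPM in MDA-MB-436-like and at 219.3 and 9.22 CPM in BT-474-like cells. CCNE2, whose level in MDA-MB-436-like cells was the lowest of the 6 groups, varied more there, with a ratio of 5.46. That ratio was still near the lowest of CCNE2 over the groups (5.22 in MDA-MB-453-like cells) and below its mean of 9.69.

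**Figure D4:**
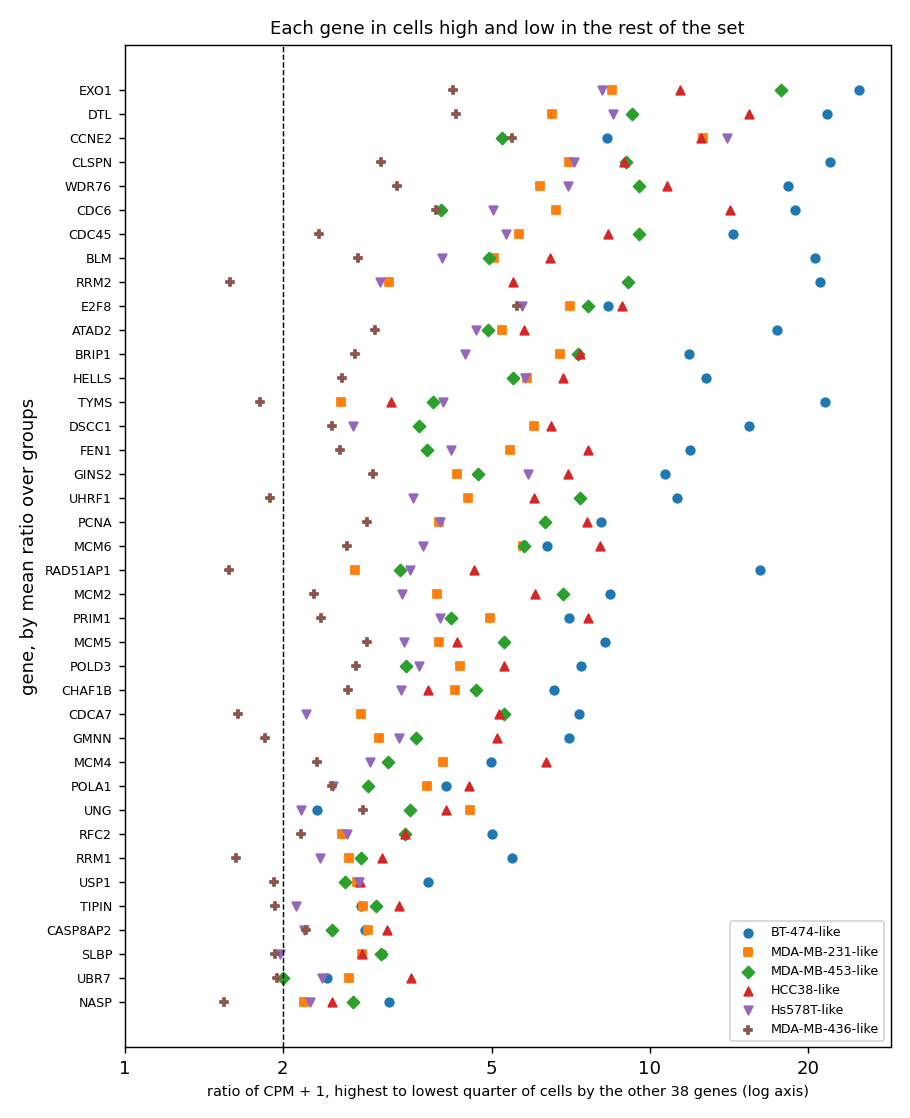
Ratio of CPM plus 1 between the highest and the lowest 25% of cells, ranked by the other 38 members, on a log axis, with 1 row per gene in the order of the mean over groups and 1 symbol per group. The dashed line marks 2-fold. MDA-MB-436-like symbols lie left of the line for 12 genes, and BT-474-like symbols lie farthest right for most genes in the upper part.

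Cells were then split by the highest 25% in the set and in 20 G2/M genes (such as TOP2A, CCNB1 and PLK1, which act in mitosis), leaving each gene out of its own ranking. Since both ranges held 25% of cells, unrelated rankings would overlap in 25% of set-high cells. Cells high in the set were also high in G2/M genes in 53.9% of BT-474-like cases, above that share. In MDA-MB-453-like cells 24.5% were, near it. In MDA-MB-231-, HCC38-, Hs578T- and MDA-MB-436-like cells 6.74, 6.32, 10.0 and 8.96% were, all below it. Spearman correlations of the set sum and the G2/M sum over cells, which share their UMI total, were 0.67 in BT-474-like, 0.05 in MDA-MB-231-like, 0.42 in MDA-MB-453-like, 0.27 in HCC38-like, 0.28 in Hs578T-like and -0.19 in MDA-MB-436-like cells. BT-474-like cells had the highest correlation and also the largest share of cells under 10 UMIs in both sums (52.2%). MDA-MB-453-like cells came next in correlation with a share of 5.85%, whereas HCC38-like cells had a share of 13.2%. A link between this share and the correlation was not tested.

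Between cells high in the set alone and cells high in G2/M genes alone, 32 of 39 genes were at least 2-fold higher in the former in BT-474-like cells. The counts were 30 in MDA-MB-231-like, 27 in MDA-MB-453-like, 26 in HCC38-like, 22 in Hs578T-like and 24 in MDA-MB-436-like cells. Outside the list this held for 2.2, 1.08, 0.857, 0.783, 0.534 and 0.645% of measured genes. In no group did a member reach 2-fold in the opposite direction, which 1.33, 1.07, 1.3, 1.27, 1.02 and 0.912% of genes outside the list did. CCNE2 had the highest mean ratio, 8.79. It was at 94.6 CPM in set-high and 5.38 CPM in G2/M-high MDA-MB-231-like cells, and at 113.1 and 20.4 CPM in BT-474-like cells. DTL (mean ratio 5.81) and UNG (4.98) followed.

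At the other end, RAD51AP1 (mean ratio 1.17), RRM1 (1.29), TYMS (1.40) and RRM2 (1.55) were closest to equal in set-high and G2/M-high cells, although RRM2 still differed 2.87-fold in BT-474-like cells. RRM2 was at 303.9 CPM in set-high and 303.3 CPM in G2/M-high Hs578T-like cells. Cells high in both sums had more RRM2 in every group, for example 436.2 CPM in Hs578T-like and 354.5 CPM in MDA-MB-231-like cells, beside 240.0 CPM in the set-high MDA-MB-231-like cells. RAD51AP1 likewise was highest in cells high in both, at 183.9 CPM in MDA-MB-436-like cells beside 114.2 CPM in set-high and 103.5 CPM in G2/M-high cells. The 3 nucleotide-supply genes therefore lay together at the low end of this order, and CCNE2, CDC6 and the ring subunits MCM5 and MCM6 at the high end. The ring subunits MCM2 (mean ratio 2.98) and MCM4 (2.51) lay between. Cells high in both sums were deeper than other set-high cells, with medians of 45079 and 38991 UMIs in Hs578T-like cells, and doublets among them were not separated.

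**Figure D5:**
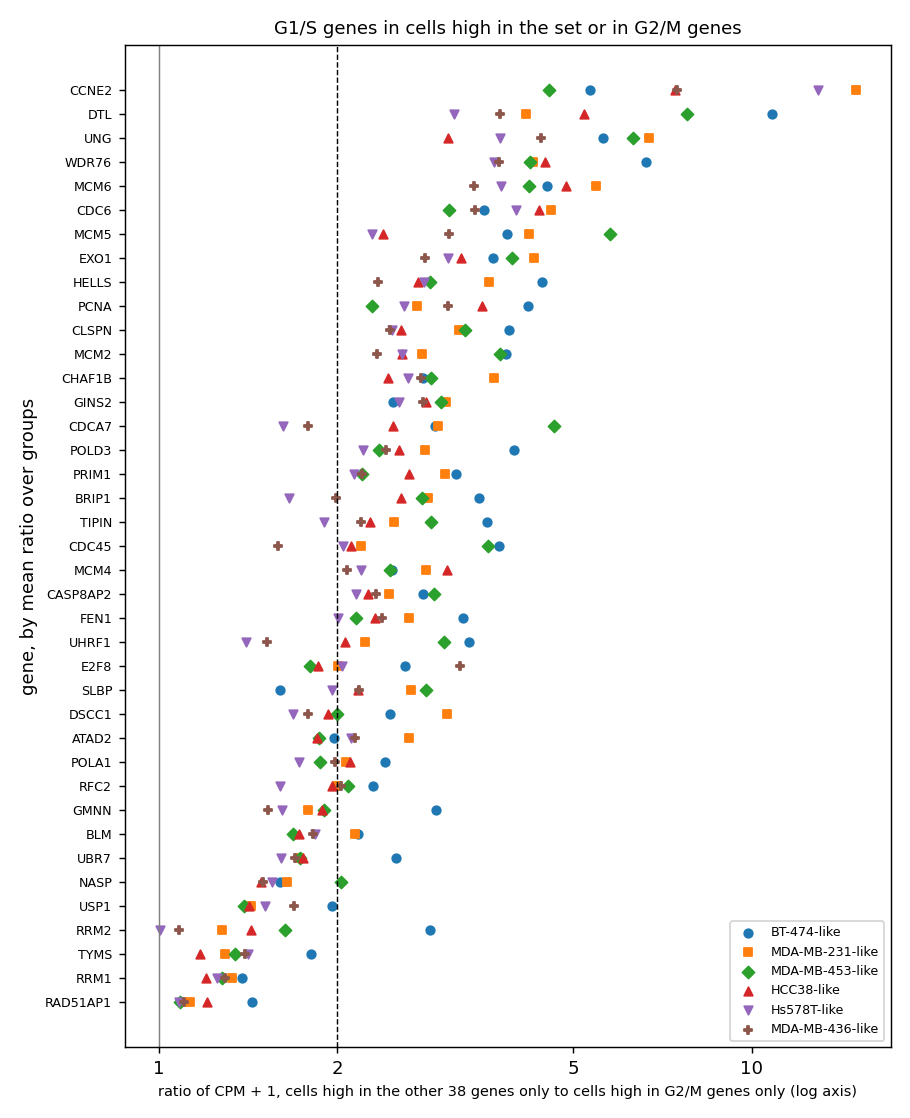
Ratio of CPM plus 1 between cells high in the other 38 members only and cells high in 20 G2/M genes only, on a log axis, with 1 row per gene in the order of the mean over groups and 1 symbol per group. The dashed line marks 2-fold and the grey line equal levels. CCNE2 is at the top (mean 8.79) and RRM2, TYMS, RRM1 and RAD51AP1 are at the bottom (1.55 to 1.17).

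Another 45 replication genes served for comparison, 44 of them measured (not GINS3). In BT-474-like cells 16 of 44 were called lower against the other 5 groups and 0 higher (27.1 and 7.35% of all measured genes), with a median log2 ratio of -0.80 (members -0.94). The 16 included E2F1, an activator of the set, at 7.32 CPM in BT-474-like and 28.5 to 59.3 CPM in other cells, and RBL1, an RB-family gene, at 2.39 CPM beside 13.1 to 50.5 CPM. In MDA-MB-453-like cells 6 were higher (10.4% of all measured genes) and 3 lower (RPA1, CCNE1 and E2F7; 23.1%). The 6 included DUT, which keeps uracil out of DNA, at 701.1 CPM beside 125.8 to 239.6 CPM in the other groups. In MDA-MB-436-like cells 6 of 44 were lower, a share below the 20.2% of all measured genes, including RB1, RBL1 and the helicase ring gene MCM3. MCM3 was at 68.8 CPM there and 90.3 to 215.4 CPM elsewhere, whereas the member MCM4 of the same ring was at 138.6 CPM there, above its level in 4 of the other 5 groups. Between the highest and lowest 25% of cells in the set, 41, 33, 36, 36, 33 and 21 of the 44 were at least 2-fold higher in the 6 groups in the same order. Among all measured genes outside the list, 4.77, 1.93, 2.45, 3.22, 1.88 and 0.866% were. The G2/M genes differed between groups in this respect, with 20 of 20 at least 2-fold higher in the set-high BT-474-like cells. In MDA-MB-453-, HCC38- and Hs578T-like cells 6, 5 and 4 of 20 were higher, and 1, 0 and 0 at least 2-fold lower. In MDA-MB-231-like cells 1 was higher and 4 were lower. In MDA-MB-436-like cells 0 were higher and 6 lower (median ratio 0.59). The share of all measured genes at least 2-fold lower was not computed for this comparison. Between groups, the G2/M list was itself lower in BT-474-like cells, with 13 of 20 genes called (27.1% of all measured genes) and a median log2 ratio of -1.33.

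Over cells, the genes outside the list most like the set by the lowest of the 6 Spearman correlations with the set sum were HIST1H4C (0.49), MCM10 (0.33), MCM7 (0.33), FAM111B (0.33) and PCLAF (0.32). MCM3 (0.29), CHAF1A (0.28), CDT1 (0.26), ATAD5 (0.25) and HIST2H2AC (0.25) followed. HIST1H4C, a histone gene with near-identical copies and therefore uncertain, was at 453.9, 823.0, 530.7, 607.9, 1166 and 847.8 CPM. It was lowest in BT-474-like cells, as the summed set was. Its next lowest level was in MDA-MB-453-like cells, where the set sum by CPM was highest. Its highest level was in Hs578T-like cells, where the set sum by CPM was next lowest. All 10 correlations are over the cells of each group, which share library and depth, and are descriptions.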

How the data were processed

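Raw UMI counts per gene and cell barcode were deposited by the authors as 1 matrix, which Cell Ranger 6.1.2 wrote, per the file headers. The build was GRCh38 (hg38) per the submitters' processing notes. How cells were called and oligos assigned is not given in the sources used here. Members, gene lists and markers were chosen with earlier results of these data known. Barcodes with at least 10000 gene UMIs and at most 20% MT- UMIs were kept. Counts were summed per suffix group and scaled to CPM, and log2 ratios used a pseudocount of 1 CPM. Genes at 10 CPM or more in at least 1 group were measured. Cells were thinned to 10000 UMIs with seed 1. Intervals are exact Poisson (CPM), Clopper-Pearson (shares) and conditional binomial (ratios). No test was run, since each line was 1 culture. Doublets were left in, and Scrublet, run per capture as an alternative, called 1.29% and 1.87% of barcodes. Named genes were the out-of-step members, the 2 highest and 2 lowest in the ratio of set-high to set-low cells, up to 3 per role by range, and the 10 genes outside the list most like the set. Scripts were tested on simulated counts. TMM factors came from edgeR 4.0.16 and Scrublet from scanpy 1.11.5, with Python 3.11.15 and scipy 1.17.1.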

Additional observations from a re-analysis of the deposited data

How the results depend on the processing

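No paired analysis was possible because each line was a single culture and no result comes from a test. The HCC38-like member median changed sign, from 0.13 in the main setting to -0.12 with TMM. The MDA-MB-436-like member median did so as well, from -0.09 to 0.12 against the other 2 groups of its capture. Ratios of single genes could also turn, such as CCNE2 in BT-474-like cells (0.07, and -0.41 within its capture). None of the 19 out-of-step distances was reversed. Below, "moved" means by more than counting error, which leaves out the spread between cells. Summed set CPM is given in the order BT-474-, MDA-MB-231-, MDA-MB-453-, HCC38-, Hs578T- and MDA-MB-436-like. With TMM it was 1751, 3391, 3426, 2632, 2676 and 2826, so that HCC38-like cells came below Hs578T- and MDA-MB-436-like cells, and without mitochondrial and ribosomal protein genes 2398, 4316, 4596, 3849, 3311 and 3945, with HCC38-like below MDA-MB-436-like cells. A 10% mitochondrial limit, which kept 207 of 2251 BT-474-like cells, moved it to 1808 in BT-474-like, 3358 in MDA-MB-231-like, 3640 in MDA-MB-453-like, 3085 in HCC38-like and 2990 in MDA-MB-436-like cells. Removing Scrublet calls moved it to 1568 in BT-474-like and 3324 in MDA-MB-231-like cells. BT-474-like cells remained lowest under each of these settings.

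The share of cells expressing the set, in the same order, was 44.8, 92.1, 92.5, 85.1, 87.6 and 97.99% at 10 set UMIs and 15.1, 50.1, 43.4, 43.9, 36.1 and 43.5% at 30, where MDA-MB-231-like cells were highest. Without mitochondrial and ribosomal protein genes it was 35.9, 84.7, 82.2, 76.3, 73.0 and 93.1%, and with a 10% mitochondrial limit 28.99% in BT-474-like and 67.7% in MDA-MB-453-like cells. Against the other 2 groups of a capture, members called higher over all groups numbered 22 (10 in the main setting) and in MDA-MB-453-like cells 11 (5), the latter 8 with a 10% mitochondrial limit. Out-of-step pairs numbered 12 with a pseudocount of 5 CPM and 30 within captures (19). Of the 19 pairs, 7 were under the limit with a pseudocount of 5 CPM, between 0.80 and 0.98 in size. POLA1 in HCC38-like, CCNE2 in BT-474-like and E2F8 in Hs578T-like cells were under the limit within captures, at -0.56, 0.70 and -0.82. All 30 alternatives for the ratios between set-high, set-low and G2/M-high cells gave counts within 1.5 times the main ones.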
